A study of Mus musculus with 20 samples.

Results

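Transcripts of the mitochondrial genome were followed in the control and inflamed epidermis and pancreas of mice, together with Lars2, a nuclear gene whose protein works inside mitochondria. The members were every gene of the count table whose mouse symbol starts with mt-, and Lars2. They came to 38 of 55471 genes, namely 13 messenger RNAs, 2 ribosomal RNAs and 22 transfer RNAs of the mitochondrial genome and Lars2 itself. RNA was sequenced from wild-type C57BL/6 mice in 4 groups of 5 libraries. The epidermis of the back skin came from male and female mice. They were 4 to 6 weeks old when the skin protocol began, and received DNFB, a contact allergen, or only its vehicle, acetone with olive oil. DNFB was given at 0.5% to sensitize the mice and later at 0.25% on the back, 3 times a week for 22 days. The pancreas came from mice injected with caerulein at 50 µg/kg or with PBS alone, 6 times a day on 3 days a week for 3 weeks, whose age is not given in the sources used here. Caerulein drives excess secretion by acinar cells, the source of the pancreatic enzymes. Whole lysed tissue was used, so each library holds RNA of every cell type present. The groups are called Acetone, DNFB, PBS and Caerulein, and a library is called by its group and the number in its label. The labels do not say that each library came from a separate mouse, so p-values measure the spread between libraries.

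Mitochondria keep a small circular genome that encodes core subunits of the respiratory complexes I, III and IV and of the ATP synthase, complex V. Each strand is transcribed as a long precursor that carries several genes, and the tRNAs that lie between the messages and the rRNAs mark the places where the precursor is cut. Each cut RNA then has its own stability, so the levels of RNAs from 1 precursor can differ. The messages are translated by a mitochondrial ribosome that holds mt-Rnr1, the small rRNA, and mt-Rnr2, the large rRNA. LARS2 is the enzyme that loads leucine onto mitochondrial tRNAs.

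Library totals ranged from 791491 to 2232039 counts, but between 37.9% and 94.3% of these lay on 12 satellite-like predicted genes, which resemble Gm10800. Shares are therefore given as percent of the counts outside those 12 genes, of which a library held between 69592 and 1073987. In such a library 3 counts correspond to between 0.000279% and 0.00431%, and this limit covers counting error only, since the reads carry no molecular identifiers. Acetone libraries 11 and 12 stood apart from Acetone libraries 1, 2 and 3, with 37.9% and 46.0% of their counts on satellite-like genes against 81.9% to 93.4%. Summed keratinocyte markers lay between 0.106% and 1.45% in skin and at or below 0.0137% in pancreas, where Krt5 and Lor were at 0 in all 10 libraries. Summed acinar markers lay between 7.90% and 39.4% in PBS and between 0.858% and 9.88% in Caerulein, and at or below 0.0258% in skin.

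The 13 messages took a far larger share of the RNA in epidermis than in pancreas, and the difference made by neither treatment passed the test over all libraries. In Acetone the messages took 22.3%, 31.9%, 16.9%, 7.18% and 9.33% of the counts outside satellite-like genes, in libraries 1, 2, 3, 11 and 12. In DNFB they took 8.60%, 11.8%, 14.2%, 8.56% and 11.3%, in libraries 4, 5, 6, 13 and 14. The DNFB libraries lay inside the range of the Acetone libraries, and the 2 lowest Acetone libraries were 11 and 12. In PBS the messages took 1.99%, 1.84%, 5.54%, 5.17% and 4.23%, in libraries 7, 8, 15, 16 and 17. In Caerulein they took 3.43%, 2.60%, 2.56%, 2.17% and 6.03%, in libraries 9, 10, 18, 19 and 20. The pancreas groups overlapped widely, and every skin library lay above every pancreas library. In bulk samples like these, fewer cells of a type and less RNA per cell cannot be told apart.

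Shares were compared on the log2 scale by two-sided exact permutation tests of 5 against 5 libraries, which cannot give a p below 0.00794, and the p-values were adjusted over 12 tests (4 measures in 3 comparisons). Folds of shares and ratios are those of the mean log2 values, not of the printed arithmetic means. The message share was 17.5% ± 10.05 (SD, n = 5) in Acetone and 10.9% ± 2.39 (SD, n = 5) in DNFB (log2 difference -0.51, exact permutation adjusted p = 0.381). Without Acetone libraries 11 and 12 the log2 difference became -1.10, with an exact permutation adjusted p of 0.0306 (3 against 5 libraries, smallest possible p 0.0179). These libraries were the lowest of Acetone on this measure. Leaving them out could only widen the difference, so that p is no independent support for it. Over all genes tested in skin, 0.730% were higher and 0.372% lower in DNFB with no overlap between the groups, and of the 4 measures none was. The message share was 3.75% ± 1.75 (SD, n = 5) in PBS and 3.36% ± 1.56 (SD, n = 5) in Caerulein (log2 difference -0.11, exact permutation adjusted p = 0.865). Acetone skin was 4.49-fold higher than PBS pancreas on the same measure, with no overlap between the groups (log2 difference 2.17, exact permutation adjusted p = 0.0238). Of all genes tested, 8.02% were higher in skin without overlap. That test also covers whatever else differs between the organs and their handling, which cannot be told apart from tissue.

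**Figure D1:**
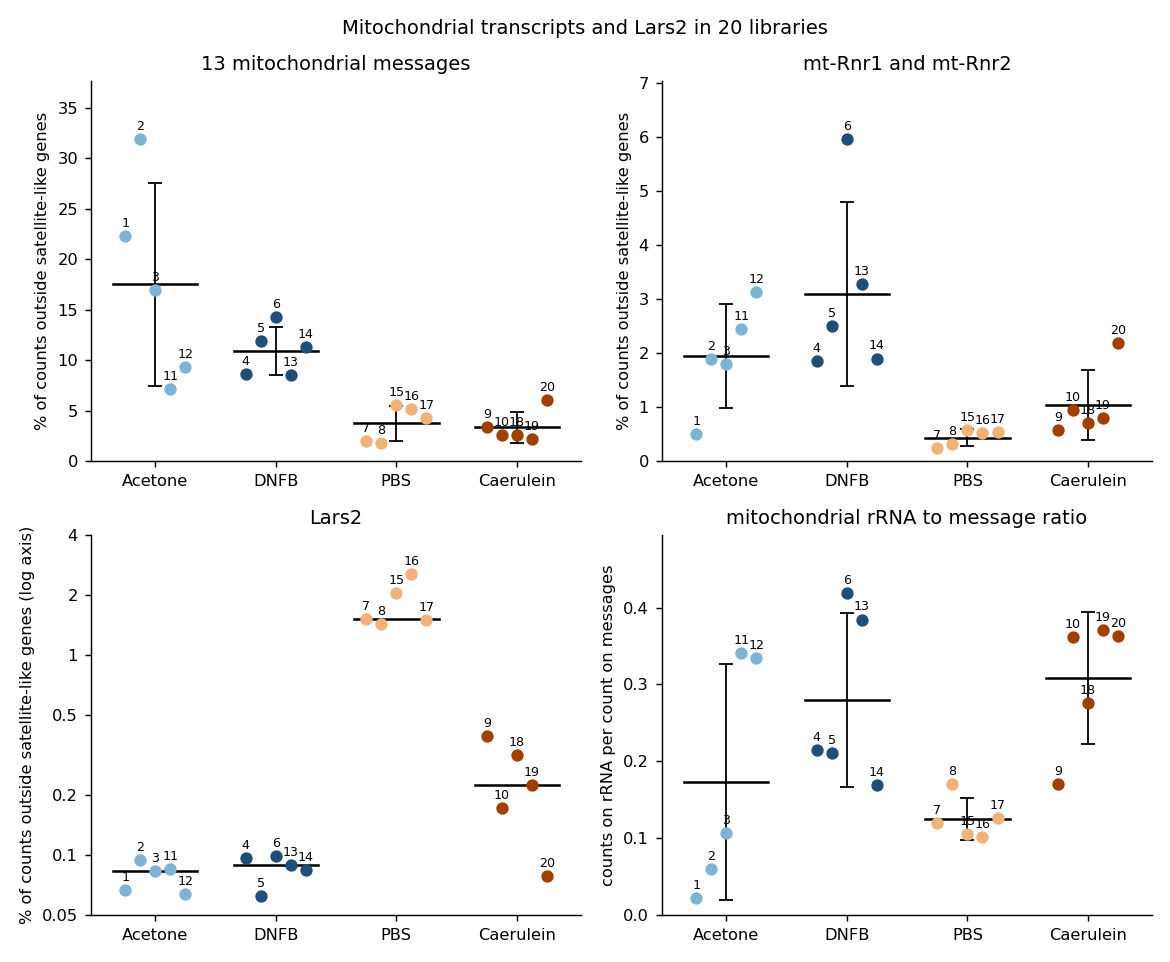
Each point is 1 library, numbered as in its label, for the 4 groups on the horizontal axis. The vertical axes give percent of counts outside satellite-like genes or, at lower right, counts on rRNA per count on messages. Bars show mean and SD, and the Lars2 panel has a log axis and a line at the median. The PBS libraries lie above all others for Lars2, between 1.43% and 2.54%, and Acetone libraries 11 and 12 lie apart from 1, 2 and 3 in the ratio.

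Part of the counts that belong to mitochondrial messages may stand under other gene names. The table holds 10 genes outside the mitochondrial genome for which 50% or more of the words of 15 bases also occur in a mitochondrial gene, 7 of them next to each other on chromosome 1 (GRCm38, chr1:24611535-24616197) and 3 on chromosome 2. Nuclear copies of this kind are insertions of mitochondrial DNA, and reads from them cannot be told from reads of the mitochondrion where the sequences are the same. Gm28437 matches mt-Co3 without a difference over 783 bases, Gm10925 matches mt-Atp6 over 678 bases, Gm28661 matches mt-Co2 over 681 bases and Gm10222 matches mt-Nd4l over 294 bases. Gm28438 differs from mt-Nd3 at 1 of 345 bases, and that base lies in the first codon. The first 60 bases of this pair are shown because they hold the only letter that separates them, in capitals (GRCm38, chrM:9459-9518 on the plus strand and chr1:24613060-24613119 on the minus strand):
mt-Nd3: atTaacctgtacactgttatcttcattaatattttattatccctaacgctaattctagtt
Gm28438: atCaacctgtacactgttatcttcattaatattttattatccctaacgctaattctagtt

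The authors' estimates divided the reads of these pairs very unevenly from library to library. For mt-Co3, a core subunit of complex IV, the mitochondrial gene received between 0% and 75.4% of the counts of the pair, and it was listed at 0 in 6 of 20 libraries, DNFB 4 and 5, PBS 7 and Caerulein 9, 18 and 19. In those libraries Gm28437 held 2726, 1678, 881, 620, 902 and 1483 counts. For mt-Nd4l, a subunit of complex I, 83 counts in all stood on the mitochondrial gene and 6690 on Gm10222. For mt-Nd3, another complex I subunit, Acetone library 2 gave 0% and 12 of the 20 libraries gave 100% to the mitochondrial gene. The share was steadier for mt-Co1, the catalytic subunit of complex IV, between 54.3% and 87.9%, where Gm29216 covers 31.8% of the message with 6 differing bases in 492. For this reason the tests of single messages were run as counted and with the copies added. The 5 messages mt-Nd1, mt-Atp8, mt-Nd5, mt-Nd6 and mt-Cytb share under 20% of their words with any copy and are least touched by this doubt.

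**Figure D2:**
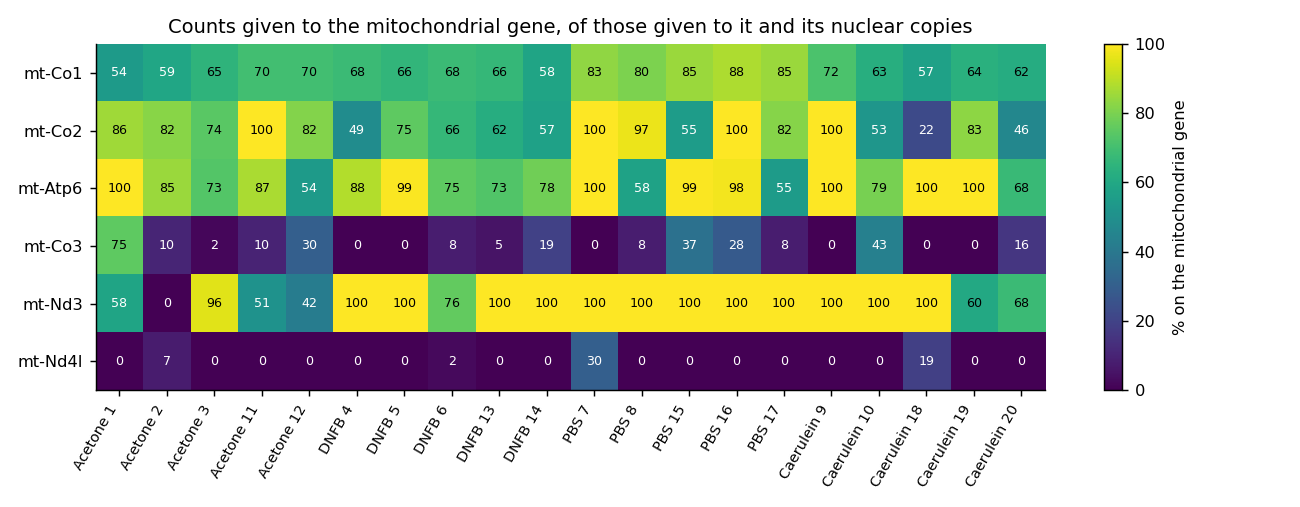
Cells give the percent of counts that stood on the mitochondrial gene (rows), of those on that gene and its nuclear copies, in each of the 20 libraries (columns). The rows for mt-Co3 and mt-Nd4l are mostly near 0, with 6 libraries of mt-Co3 at 0, while mt-Co1 stays between 54.3% and 87.9%.

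The mixture of messages also differed between groups. As counted, 10 of 13 messages had another share of the message counts in Acetone skin than in PBS pancreas (4 higher, 6 lower), 5 of 13 in Caerulein than in PBS (3 higher, 2 lower) and 1 of 13 in DNFB than in Acetone. These counts come from two-sided exact permutation tests adjusted over 39 tests. With the copies added they were 12, 6 and 1. Such shares do not depend on any scaling between libraries, but they must sum to the same total, so a rise of 1 message lowers others. They are defined only within the 13 messages, so no share over all genes stands beside these counts. On shares outside satellite-like genes, 8.02% of genes tested were higher and 6.52% lower in Acetone than in PBS without overlap. For Caerulein against PBS these were 11.6% and 1.06%, and for DNFB against Acetone 0.730% and 0.372%.

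In pancreas, the mixture shifted from PBS to Caerulein toward mt-Atp6 and mt-Cytb and away from mt-Nd5. The satellite share was 85.1% to 94.3% in PBS and 66.8% to 93.2% in Caerulein, and its part in the shift was not tested. The share of mt-Atp6, a subunit of the proton channel of complex V, was 3.73% ± 1.01 (SD, n = 5) in PBS and 11.1% ± 3.29 (SD, n = 5) in Caerulein (log2 difference 1.55, exact permutation adjusted p = 0.0221). With copies added the values were 3.58% and 8.95%, and the groups still did not overlap. The share of mt-Cytb, the mitochondrially encoded subunit of complex III, was 8.97% ± 1.56 (SD, n = 5) and 14.9% ± 2.45 (SD, n = 5), with a log2 difference of 0.74 and the same exact permutation adjusted p of 0.0221. The share of mt-Nd5, a proton-pumping subunit of complex I, fell from 11.5% ± 1.48 (SD, n = 5) to 7.74% ± 1.32 (SD, n = 5), again with an exact permutation adjusted p of 0.0221. These calls held for all 3 messages with the copies added (exact permutation adjusted p = 0.0182).

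Other messages of the pancreas depended on how the copies were handled. The share of mt-Nd1, a complex I subunit near the start of the heavy-strand precursor, was 5.75% ± 0.614 (SD, n = 5) in PBS and 11.3% ± 4.05 (SD, n = 5) in Caerulein (exact permutation adjusted p = 0.0221), but its adjusted p was 0.0590 with copies added to the total. Among the 5 messages without a copy, mt-Nd1 made up 21.0% ± 1.64 (SD, n = 5) in PBS and 31.8% ± 8.06 (SD, n = 5) in Caerulein (exact permutation adjusted p = 0.0198 over 15 tests). The share of mt-Co1 was 46.3% in PBS and 35.5% in Caerulein as counted (exact permutation adjusted p = 0.0387), and 43.0% and 38.4% with its copies (exact permutation adjusted p = 0.129). The shares of mt-Nd2 and mt-Nd4, both subunits of complex I, passed the test only with copies added, from 2.83% to 1.41% and from 7.15% to 5.14% (exact permutation adjusted p = 0.0182 for each). The share of mt-Co2, the complex IV subunit that receives electrons from cytochrome c, then rose from 5.49% to 7.16% (exact permutation adjusted p = 0.0489).

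The ratio of mt-Nd1 to mt-Nd5, which uses no copied message, shows the shift by library and was chosen after its values were seen. It was 0.471, 0.556, 0.485, 0.510 and 0.498 in PBS libraries 7, 8, 15, 16 and 17. It was 0.761, 2.15, 0.934, 1.52 and 2.36 in Caerulein libraries 9, 10, 18, 19 and 20. All 5 Caerulein libraries were above all PBS libraries, and the 2 lowest of them, 9 and 18, had the highest shares of satellite-like genes of that group, 93.2% and 89.5%. In Acetone libraries 1, 2, 3, 11 and 12 the ratio was 8.58, 8.80, 4.84, 2.35 and 2.33, so that libraries 11 and 12, with the lowest satellite shares, had the lowest values. In DNFB it lay between 2.60 and 4.76. The part of the satellite share in these differences was not tested.

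In skin, 1 message of 13 passed the test in each way of counting, but not the same one. As counted it was mt-Nd3, at 0.309% ± 0.25 (SD, n = 5) of the message counts in Acetone and 0.864% ± 0.185 (SD, n = 5) in DNFB (exact permutation adjusted p = 0.0387). With Gm28438 added these became 0.435% and 0.698% (exact permutation adjusted p = 0.149). With copies added it was mt-Co2, at 5.86% ± 1.07 (SD, n = 5) and 8.37% ± 0.830 (SD, n = 5), with no overlap between the groups (log2 difference 0.53, exact permutation adjusted p = 0.0182). As counted mt-Co2 stood at 6.30% and 6.85% (exact permutation adjusted p = 0.638). None of the 5 messages without a copy passed in skin, and 1 of them, mt-Atp8, had an unadjusted exact permutation p under 0.05.

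Acetone skin had more of mt-Atp6 and mt-Nd1 in its mixture than PBS pancreas, and less of mt-Nd6, in both ways of counting. With copies added, mt-Atp6 made up 3.58% ± 0.393 (SD, n = 5) of the message counts in PBS and 17.4% ± 4.21 (SD, n = 5) in Acetone. The share of mt-Nd1 was 4.52% ± 0.633 (SD, n = 5) and 16.4% ± 1.90 (SD, n = 5). The share of mt-Nd6, the only message encoded on the other strand, was 0.820% ± 0.210 (SD, n = 5) and 0.174% ± 0.0564 (SD, n = 5). As counted the PBS and Acetone means were 3.73% and 17.8% for mt-Atp6, 5.75% and 20.6% for mt-Nd1 and 1.05% and 0.220% for mt-Nd6. mt-Nd6 overlaps mt-Nd5 by 14 bases on the opposite strand, and Smart-Seq2 reads carry no strand, so its counts may include RNA of the other strand. With copies added, the messages higher in skin were mt-Nd1, mt-Atp8, mt-Atp6 and mt-Cytb, and those lower were mt-Nd2, mt-Co1, mt-Co3, mt-Nd3, mt-Nd4l, mt-Nd4, mt-Nd5 and mt-Nd6. As counted, mt-Co3 and mt-Nd4l did not pass (exact permutation adjusted p = 0.878 and 0.0860), and the other 10 did in the same directions. Within the 5 messages without a copy, mt-Nd1, mt-Atp8, mt-Nd5 and mt-Nd6 passed in the same directions. There mt-Cytb, at 32.8% in PBS and 40.4% in Acetone, did not pass (exact permutation adjusted p = 0.0952 over 15 tests). mt-Atp8, the small partner of mt-Atp6 in complex V, overlaps it by 43 bases, so reads of the overlap could count for either. Per kilobase and with copies added, mt-Atp6 had the highest median level of the 15 messages and rRNAs in both skin groups, and mt-Co1 in both pancreas groups.

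**Figure D3:**
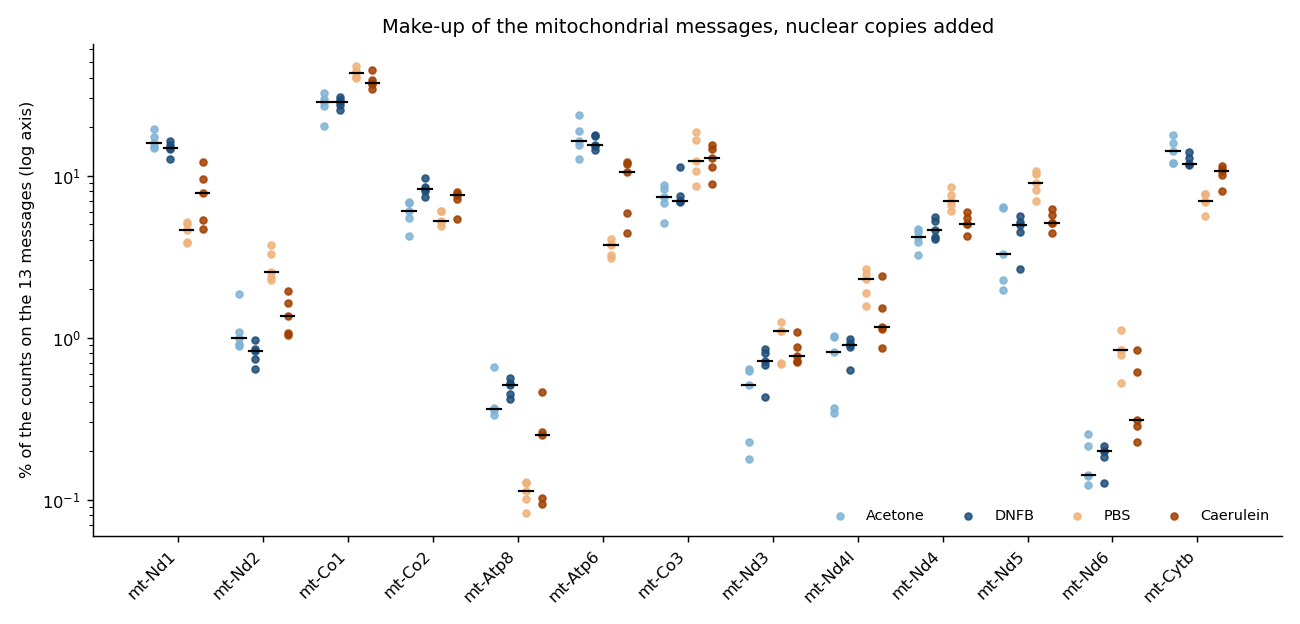
The share of each message in the counts on all 13 messages, nuclear copies added, on a log axis, with messages in genome order. Points are libraries in the 4 groups and lines are medians. Acetone and PBS do not overlap at 11 of the 13 messages, on a measure that has no counterpart over all genes. Acetone is higher at mt-Nd1, mt-Atp8, mt-Atp6 and mt-Cytb, and lower at mt-Nd2, mt-Co1, mt-Nd3, mt-Nd4l, mt-Nd4, mt-Nd5 and mt-Nd6. The mean of mt-Nd6 is 0.820% in PBS and 0.174% in Acetone.

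The summed share of the 2 mitochondrial rRNAs rose in inflamed pancreas and did not pass the test in inflamed skin. In PBS libraries 7, 8, 15, 16 and 17 they took 0.239%, 0.314%, 0.582%, 0.522% and 0.537% of the counts outside satellite-like genes. In Caerulein libraries 9, 10, 18, 19 and 20 they took 0.586%, 0.940%, 0.706%, 0.805% and 2.19%. The groups did not overlap, though the highest PBS and the lowest Caerulein library were close (log2 difference 1.16, 2.24-fold, exact permutation adjusted p = 0.0238). Among all genes tested in this pair of groups, 11.6% were higher in Caerulein without overlap on the same measure. As a share of all counts, satellite-like genes included, the exact permutation adjusted p was 0.0571. In skin the rRNA share was 1.95% ± 0.969 (SD, n = 5) in Acetone and 3.10% ± 1.71 (SD, n = 5) in DNFB (log2 difference 0.75, exact permutation adjusted p = 0.310). The share in Acetone skin was 4.03-fold that in PBS pancreas, which did not pass the test (exact permutation adjusted p = 0.0635), and did pass without Acetone library 1 (log2 difference 2.45, exact permutation adjusted p = 0.0190).

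Set against the messages, rRNA was also higher in Caerulein than in PBS, though not under every setting. The ratio of rRNA to message counts was 0.120, 0.171, 0.105, 0.101 and 0.127 in the PBS libraries and 0.171, 0.361, 0.276, 0.371 and 0.363 in the Caerulein libraries, in the order above. PBS library 8 lay just above Caerulein library 9, so that the groups overlapped, and the other 4 Caerulein libraries lay above all PBS libraries. The difference was 2.42-fold (log2 difference 1.28, exact permutation adjusted p = 0.0381), and without PBS library 7, 15, 16 or 17 the exact permutation adjusted p was 0.0571 each time. With labels permuted only within the libraries numbered 1 to 10 and 11 to 20 the call was also lost (log2 difference 1.195, exact permutation adjusted p = 0.0667). In Acetone the ratio was 0.0224, 0.0595, 0.106, 0.340 and 0.335, in libraries 1, 2, 3, 11 and 12. In DNFB it was 0.215, 0.211, 0.419, 0.384 and 0.169, in libraries 4, 5, 6, 13 and 14. Acetone thus split into libraries 1, 2 and 3 and libraries 11 and 12, and the difference of 2.38-fold between DNFB and Acetone did not pass (log2 difference 1.25, exact permutation adjusted p = 0.245). Without Acetone libraries 11 and 12 the log2 difference was 2.33 and the exact permutation adjusted p was 0.0306. These libraries had the highest ratios of Acetone. Leaving them out could only widen the difference, so that p is no independent support for it. Between PBS and Acetone the log2 difference of the ratio was -0.15 (exact permutation adjusted p = 0.865).

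The ratio was lower in libraries with a higher satellite share, most plainly in Acetone. In Acetone the ratio was lowest at 93.4% satellite counts and highest at 37.9%. In Caerulein it was lowest at 93.2%, in library 9, and 0.361 to 0.371 in libraries 10, 19 and 20, where the satellite share was between 66.8% and 74.1%. In DNFB the 2 highest ratios belonged to libraries 6 and 13, with 58.3% and 61.5%. The PBS libraries, all at or above 85.1%, held ratios between 0.101 and 0.171. The part of the satellite share in the group differences was not tested.

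**Figure D4:**
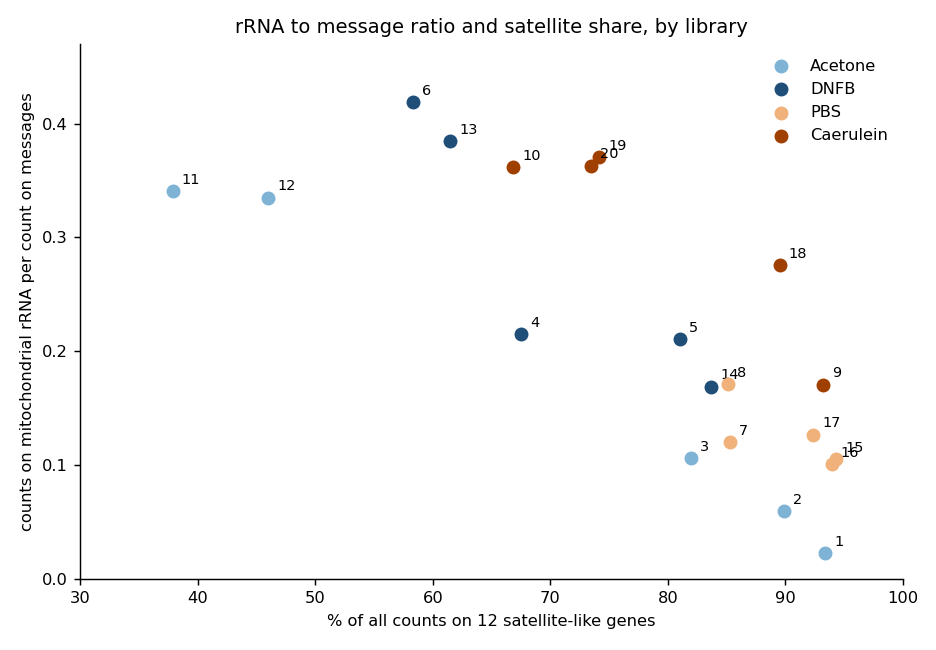
Each point is 1 library, numbered as in its label, with the percent of all counts on satellite-like genes on the horizontal axis and the mitochondrial rRNA to message ratio on the vertical axis. Libraries above 80% satellite counts have ratios between 0.0224 and 0.276, and the 8 libraries below 80% have ratios between 0.215 and 0.419.

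The 2 rRNAs did not move together. Counts of mt-Rnr1 stayed between 93 and 414 in all 20 libraries, while those of mt-Rnr2 ran from 284 to 40506. As percent of counts outside satellite-like genes mt-Rnr2 was 0.155% to 0.411% in PBS and 0.391% to 2.13% in Caerulein, whereas mt-Rnr1 was 0.0838% to 0.171% and 0.0392% to 0.195%. In skin mt-Rnr2 was 0.343% to 3.09% in Acetone and 1.81% to 5.91% in DNFB, and mt-Rnr1 was 0.0324% to 0.310% and 0.0369% to 0.0932%. Taken singly, the ranges of either rRNA overlapped between the groups in both tissues. In pancreas edgeR called neither mt-Rnr2 (log2 fold change 1.12, adjusted p = 0.236) nor mt-Rnr1 (log2 fold change -1.15, adjusted p = 0.225). The number of mt-Rnr2 counts for each mt-Rnr1 count was 1.85 to 2.53 in PBS, 2.01 to 37.9 in Caerulein, 2.19 to 94.3 in Acetone and 19.4 to 97.8 in DNFB. Both rRNAs come from the same stretch of the heavy-strand precursor, and mt-Rnr1 is 955 and mt-Rnr2 1582 bases long. In Acetone libraries 1, 2, 3, 11 and 12 the quotient was 2.19, 5.12, 8.86, 74.4 and 94.3. In Caerulein libraries 9, 10, 18, 19 and 20 it was 2.01, 23.0, 4.83, 15.8 and 37.9. In Acetone, DNFB and Caerulein it was lowest in the library with the highest satellite share, and in PBS it was not. These quotients were chosen after their values were seen and are given without a test.

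Smart-Seq2 starts its cDNA from oligo-dT, which anneals to poly(A) tails and can anneal to runs of A inside an RNA. The longest run of A in each rRNA is therefore shown in capitals, in a window of 60 bases on the plus strand (GRCm38, chrM:677-736 and chrM:1461-1520):
mt-Rnr1: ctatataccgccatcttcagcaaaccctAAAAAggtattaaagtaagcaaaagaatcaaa
mt-Rnr2: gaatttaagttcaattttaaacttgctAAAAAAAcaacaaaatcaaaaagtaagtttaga

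The run is 5 bases in mt-Rnr1 and 7 in mt-Rnr2. mt-Rnr1 holds 4 windows of 10 bases with at least 8 A, and mt-Rnr2 holds 18. Among the messages, mt-Nd2 holds 14 such windows and a run of 8, and had 7272 counts in all. Messages with 0 such windows had from 83 counts, on mt-Nd4l, to 104773, on mt-Nd1. The low value of mt-Nd4l depends on the division of reads with Gm10222, which held 6690 counts. mt-Nd6, also with 0 windows and among the messages without a copy, had 1454. Where cDNA began on these RNAs was not tested, since the table gives 1 count per gene.

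The tRNAs were barely measured. The 22 genes, between 59 and 75 bases long, held 375 counts in all 20 libraries together, and 7 were at 0 in every library. Of these counts 272 stood on mt-Ts1, a serine tRNA gene, and outside it no tRNA exceeded 5 counts in a library. mt-Ts1 was between 2 and 12 counts in PBS, 5 and 20 in Caerulein, 10 and 34 in Acetone and 9 and 38 in DNFB. It lies on the minus strand at the end of mt-Co1, and the gene is shown with the 3 bases that it shares with mt-Co1 in capitals (GRCm38, chrM:6870-6938 on the minus strand):
mt-Ts1: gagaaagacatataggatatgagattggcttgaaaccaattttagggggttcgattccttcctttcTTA

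Since strand was not recorded, counts on mt-Ts1 cannot be told from reads of an RNA that runs on past the end of mt-Co1. mt-Ts1 held between 0.0863% and 0.738% of the counts on mt-Co1.

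Lars2 stood far higher in PBS pancreas than in skin, and fell in Caerulein pancreas. It took between 0.0619% and 0.0983% of the counts outside satellite-like genes in all 10 skin libraries, and between 1.43% and 2.54% in PBS. The gene lies on chromosome 9 (GRCm38, chr9:123366927-123462666, plus strand). In PBS libraries 7, 8, 15, 16 and 17 Lars2 took 1.52%, 1.43%, 2.05%, 2.54% and 1.49%. In Caerulein libraries 9, 10, 18, 19 and 20 it took 0.392%, 0.172%, 0.315%, 0.224% and 0.0783%. The lowest PBS library was well above the highest Caerulein library, and Caerulein library 20 lay within the range of the skin. The mean was 1.81% ± 0.479 (SD, n = 5) in PBS and 0.236% ± 0.122 (SD, n = 5) in Caerulein, and the mean of the log2 values was 8.53-fold lower (log2 difference -3.09, exact permutation adjusted p = 0.0238). On the same measure 1.06% of all genes tested were lower in Caerulein without overlap. With labels permuted only within the libraries numbered 1 to 10 and 11 to 20 the log2 difference was -2.99 (exact permutation adjusted p = 0.0400).

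In skin, Lars2 stood at 0.0669%, 0.0945%, 0.0830%, 0.0853% and 0.0637% in Acetone libraries 1, 2, 3, 11 and 12, and at 0.0959%, 0.0619%, 0.0983%, 0.0893% and 0.0837% in DNFB libraries 4, 5, 6, 13 and 14. The ranges overlapped almost fully (log2 difference 0.12, exact permutation adjusted p = 0.543). Acetone libraries 11 and 12, which stood apart in the rRNA ratio, did not stand apart here. Acetone skin was 22.5-fold lower than PBS pancreas (log2 difference -4.49, exact permutation adjusted p = 0.0238), where 6.52% of all genes tested were lower without overlap. The effect of inflammation on Lars2 differed between the tissues by 3.21 on the log2 scale (two-sided exact permutation test with labels permuted within each tissue, adjusted p = 0.00718 over 4 tests). In edgeR, with every gene adjusted, the same difference was 3.61 (SE 0.897, adjusted p = 0.0668), which did not pass. For the message share, the rRNA share and their ratio the tissues did not pass a test of the difference (adjusted p from 0.827 to 0.982, exact permutation).

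Lars2 was far above the other genes listed for mitochondrial tRNA charging. The list of 22 also held Mtfmt, Gatb, Gatc and Qrsl1, which modify the amino acid on a tRNA that is already charged. Compared per kilobase and per 10000 counts outside satellite-like genes, none of the 22 exceeded Lars2 in any of the 20 libraries. The level of Lars2 was 36.7 to 65.1 in PBS, 2.01 to 10.1 in Caerulein, 1.64 to 2.43 in Acetone and 1.59 to 2.52 in DNFB. The highest value of any of the 22 others was 0.277 in PBS, 0.363 in Caerulein, 0.681 in Acetone and 0.766 in DNFB. In each PBS library Lars2 was between 177 and 280 times its nearest neighbour, and in skin between 3.22 and 11.6 times. In Caerulein it was between 5.54 and 71.6 times. All 22 others together held 24 to 37 counts in a PBS library. Kars had the highest median among them in Acetone and Gars in the other 3 groups, and both make their enzymes, for lysine and glycine, for the cytosol as well as for mitochondria.

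**Figure D5:**
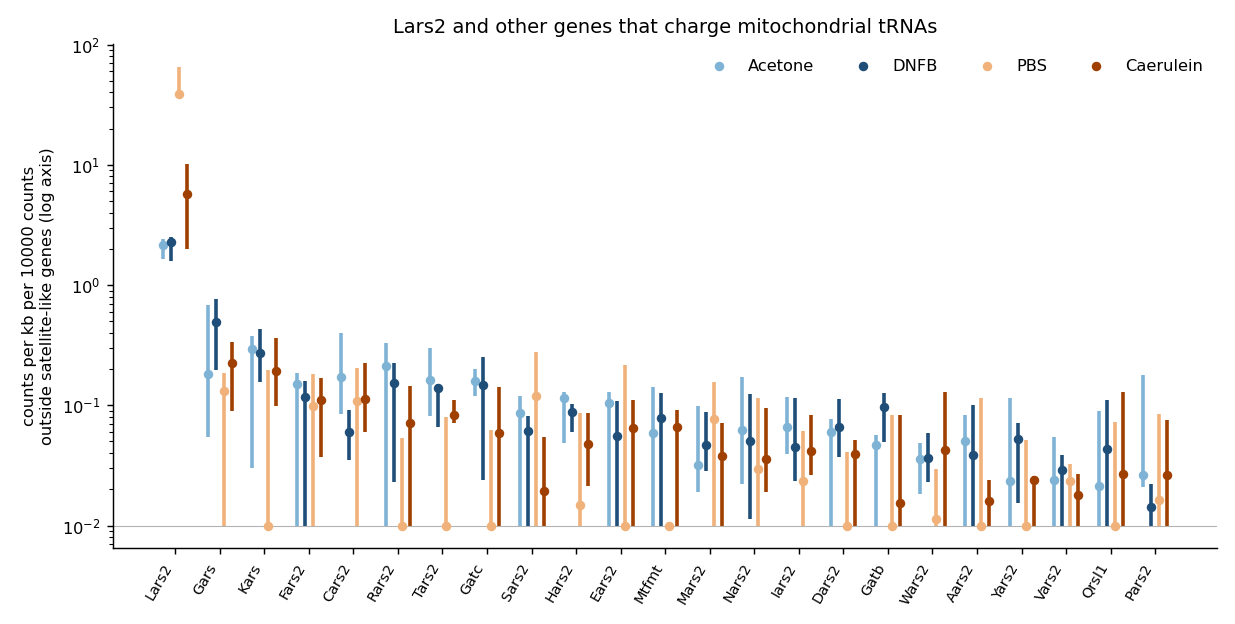
Levels of Lars2 and of 22 other genes listed for mitochondrial tRNA charging, in counts per kilobase per 10000 counts outside satellite-like genes, on a log axis. Dots are group medians and lines run from the lowest to the highest of 5 libraries, with values under 0.01 drawn at the grey line. Lars2 is the highest gene in each group and reaches 36.7 to 65.1 in PBS.

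Lars2 moved beside other features of the pancreas. Summed acinar markers took 7.90% to 39.4% in PBS and 0.858% to 9.88% in Caerulein, with all 14 of the list detected in both groups, and leukocyte markers 0.0124% to 0.104% and 0.106% to 1.39%. Duct markers took 0.000992% to 0.00646% in PBS and 0.0138% to 0.0683% in Caerulein, fibroblast markers 0.00694% to 0.284% and 0.121% to 1.004%, and islet markers 0.0245% to 0.0496% and 0.0252% to 0.213%. The acinar ranges overlapped, as did those of fibroblast and islet markers, and those of leukocyte and duct markers did not. CT010467.1, annotated as an rRNA gene on chromosome 17 and chosen after its values were seen, took 11.6% to 13.1% in PBS, 6.19% to 8.14% in Caerulein, 1.62% to 4.45% in DNFB and 0.382% to 4.59% in Acetone. The part of these in the fall of Lars2 was not tested. Lars2 shares 0 words of 15 bases with CT010467.1, with the 2 mitochondrial rRNAs and with the 13 messages. That comparison covers annotated genes only, and where the reads counted on Lars2 came from was not tested. For each count on the 13 messages there were 0.353 to 0.776 counts of Lars2 in PBS, 0.0130 to 0.123 in Caerulein and 0.00296 to 0.0119 in skin.

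Gene by gene, edgeR's quasi-likelihood test with Benjamini-Hochberg adjustment over all genes tested called 0 of 16 members in skin, 1 of 14 in pancreas and 6 of 16 between the control tissues. Over all genes it called 0.0413% of 7265 genes in skin (0.0275% higher, 0.0138% lower), 12.2% of 946 in pancreas (8.14% higher, 4.02% lower) and 25.1% of 736 between the control tissues (88 genes higher, 97 lower). These counts over all genes moved when 1 library was left out. In pancreas 14 genes were called without PBS library 7, 33 to 36 without PBS library 15, 16 or 17, 38 to 44 without Caerulein library 10, 19 or 20, 264 without Caerulein library 9 and 280 without PBS library 8, while Lars2 was called each time. Between the control tissues 121 and 125 were called without Acetone library 11 or 12, 316 and 438 without Acetone library 3 or 1, 286 and 301 without PBS library 7 or 16 and 459 without PBS library 8. In skin 0 of the 16 members had an unadjusted edgeR p under 0.05, and DESeq2 called 0 of 17, with 3 at an unadjusted p under 0.05 beside 1748 of 23116 genes. Of 38 members, mt-Nd4l and the tRNAs other than mt-Ts1 did not pass the filter on low counts in any comparison, nor did mt-Ts1 and mt-Atp8 in pancreas. In pancreas only Lars2 was called, lower in Caerulein (log2 fold change -3.61, SE 0.662, edgeR adjusted p = 0.00775). Between the control tissues Lars2 was lower in Acetone skin (log2 fold change -4.85, SE 0.813, edgeR adjusted p = 6.5e-05). mt-Atp6, mt-Atp8, mt-Nd1, mt-Cytb and mt-Rnr2 were higher in skin, by 4.45, 4.01, 3.94, 3.19 and 2.34 on the log2 scale (edgeR adjusted p from 0.000627 to 0.0282). The call on mt-Rnr2 was lost without Acetone library 2 or 12 or any of the 5 PBS libraries (log2 fold change 1.78 to 2.51, edgeR adjusted p from 0.0504 to 0.168), and that on mt-Cytb without PBS library 17 (2.78, edgeR adjusted p = 0.0546). Of 10 other settings, run in edgeR or DESeq2, 3 lost the call on mt-Rnr2 (adjusted p up to 0.149) and 1 that on mt-Cytb (adjusted p = 0.0771). The median log2 fold change of the members tested was -0.72 in skin, -1.04 in pancreas and 0.99 between the control tissues, beside 0.02, -0.00 and -0.04 over all genes tested. Scaling by library totals alone moved the median over all genes to 1.86 in pancreas and 2.29 between the control tissues. It moved that of the members to 0.005 in skin, 0.95 in pancreas and 3.08 between the control tissues. In pancreas and between the control tissues it called 5 and 13 members, 4 and 12 of them higher. Those stood beside 572 of 946 and 420 of 736 genes, 554 and 383 of them higher. With at least 10 counts in every library the median of the members in pancreas was 0.36. In the other settings it stayed negative there.

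The nuclear genes that run mitochondrial gene expression were too low for a test in pancreas, where 0 genes of 5 lists passed the filter in either comparison that used it. In skin the filter passed 5 of 14 genes of transcription and the nucleoid, 13 of 27 of RNA processing and stability, 11 of 22 of tRNA charging, 7 of 11 translation factors and 66 of 83 of the mitochondrial ribosome. edgeR called 0 of these, and 0 had an unadjusted p under 0.05, beside 422 of the 7265 genes tested. The median log2 fold changes of the lists were 0.18, -0.30, -0.36, 0.09 and 0.06 in that order. Named by level, Ssbp1, which binds single-stranded mitochondrial DNA, had a log2 fold change of 0.18 (SE 0.436) and Polg, the replicative DNA polymerase of mitochondria, -0.25 (SE 0.463). Slirp, which stabilizes the messages, stood at 0.10 (SE 0.434) and Rexo2, an exonuclease for very short RNAs, at 0.47 (SE 0.533). Gars stood at 0.43 (SE 0.583) and Kars at 0.26 (SE 0.536). The elongation factor Tufm stood at -0.43 (SE 0.627) and the ribosome recycling factor Mrrf at 0.62 (SE 0.724). Mrpl17 and Mrpl42, proteins of the large ribosomal subunit, stood at 0.01 (SE 0.446) and 0.25 (SE 0.523).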

How the data were processed

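RNA of 20 mouse libraries was sequenced by Smart-Seq2. The authors mapped reads to mm10 with STAR 2.5.3 and deposited expected counts per gene from RSEM 1.3.1, without normalization. The annotation was not given in the sources used here. RSEM divides reads that match several genes, so near-identical copies can exchange counts. Of the values above 0, 87.2% were whole (within 1e-09), and all were rounded. Names came from GENCODE M21 (GRCm38), and 241 IDs stayed unnamed. Satellite-like genes and nuclear copies were those sharing at least 50% of 15-base words with Gm10800, Gm10801 or Gm21738, or with the mitochondrial genes. Tests used edgeR 4.0.16 in R 4.3.3 (filterByExpr with a minimum count of 10, TMM, no covariate), DESeq2 1.42.0 as an alternative, and exact permutation tests of log2 values with 0.5 count added. The edgeR fit was tested on simulated data. Named genes were the messages, the rRNAs, Lars2, tRNAs and copies with at least 10 counts in 5 libraries and, since no gene of the lists passed, the 2 highest of each. The members, lists and tests were chosen with earlier results of these data known. Scaling, filter, denominator, covariate and left-out libraries were varied.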

Additional observations from a re-analysis of the deposited data

Results flagged for a closer look

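The effect of inflammation on the share of Lars2 differed between skin and pancreas by 3.213 on the log2 scale in a test of that difference. Among 80 groups of 5 libraries examined for 1 library far from the other 4, 5 were picked out where chance gives about 4. The gap to the nearest library, as a fraction of the range, passed the limit of 0.71 for these values. The share of mt-Nd2 in the messages with copies added was 1.87% in Acetone library 1 and 0.889% to 1.08% in the others (0.737). On the same measure that of mt-Atp8 was 0.663% in the same library and 0.331% to 0.366% in the others (0.862). The share of mt-Co2 was 5.43% in Caerulein library 9 and 7.17% to 7.92% in the others (0.736). In DNFB library 14 the share of mt-Co3 was 11.4% against 6.87% to 7.50% (0.825), and that of mt-Nd4l was 0.627% against 0.875% to 0.988% (0.733).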

How the results depend on the processing

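No paired analysis was possible because the labels share no replicate number between groups. Lars2 kept its direction and its call in pancreas and between the control tissues under every setting run, with log2 fold changes from -3.72 to -1.93 and from -5.24 to -2.33 across scalings, filters and tools. The summed message share in pancreas changed sign without a call: it was 0.85 as a share of all counts, 0.0120 within label number ranges, 0.0679 with copies added, 0.23 for messages without a copy, and -0.35 to 0.0634 without 1 library. In pancreas the rRNA share stood at 2.12 as a share of all counts and lost its call, and the rRNA ratio stood at 1.195 within label number ranges (exact permutation adjusted p = 0.0667) and at 1.195 to 1.48 without 1 library. Between the control tissues the rRNA share passed at 2.24 of nuclear counts, at 2.23 within label number ranges and at 2.445 without Acetone library 1 (1.785 to 2.445 without 1 library), while the rRNA ratio stood at 0.0479 on the linear scale, 0.0775 within ranges and -0.56 to 0.42 without 1 library. Acetone libraries 11 and 12 had the lowest message shares and the highest rRNA ratios of Acetone. Without them the skin message share was -1.10 and its rRNA ratio 2.33, both then called. Without them the skin minus pancreas difference was 0.0684 for the rRNA share and 1.05 for the ratio (-0.60 to 0.38 without 1 library). Members called in pancreas were 2 of 16 with DESeq2, beside 735 of 8618 genes, and 5 of 14 with library totals only, beside 572 of 946. Where no library had under 10 counts they were 5 of 13, beside 41 of 131 genes. Without 1 library they were 1 to 2 (2 of 14 without Caerulein library 9, beside 264 of 1542 genes). Between the control tissues they were 13 of 16 with library totals only, beside 420 of 736 genes. With the count minimum in each library they were 10 of 12, beside 18 of 56 genes. Without 1 library they were 4 to 7. Over all genes the calls were 3 in skin (0 to 108 under other settings, 78 with DESeq2, 0 to 34 without 1 library), 115 in pancreas (41 to 1297, 735 with DESeq2, 14 to 280 without 1 library) and 185 between the control tissues (18 to 1255, the last with DESeq2, 121 to 459 without 1 library). Log2 fold changes without a call that changed sign were those of Lars2 in skin (0.0371 with DESeq2, 0.17 with library totals, 0.0398 with no filter, 0.14 with the count minimum in each library, -0.19 to 0.15 without 1 library), in pancreas mt-Rnr1 (0.29) and mt-Nd5 (0.70) with library totals, mt-Nd5 (0.13) with the count minimum and mt-Cytb (-0.0585) with satellite-like genes left out, mt-Cytb (-0.29 to 0.33) and mt-Nd1 (-0.28 to 0.66) without 1 library, and between the control tissues mt-Rnr1 (1.19 with library totals, 0.0255 with satellite-like genes and members out of the scaling, 0.73 with the count minimum, 0.71 without Acetone libraries 11 and 12, -0.69 to 0.12 without 1 library) and mt-Nd5 (-0.0111 to 0.63 without 1 library). The cause was not tested. Nuclear copies and the quotients were added after seeing the data.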
